A study of Sus scrofa with 15 samples.

Results

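Blood microRNAs (miRNAs) of newborn pigs (day 0) were set against those of pigs at day 360, an age that the study counts as sexually mature. The blood was whole peripheral blood of domestic pigs, and 3 libraries per age make 6 of the series' 15 libraries. All miRNAs of the deposited count table were taken, 295 in all, less 2 that repeat another miRNA in every library. Of the 293 left, 215 had enough counts to be tested. The labels name no breed, genotype or treatment, and they do not say whether the same animals were bled at both ages. Libraries of days 30, 60 and 180 entered the model to share its estimate of the spread. Each p-value thus rests on the spread between 3 biological replicates per age. They also entered the filter on counts and the scaling of library sizes. Without day 180 replicate 1, 233 miRNAs were tested. The median log2 fold change of the 215 tested here was then -0.12 in place of -0.29.

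A miRNA is a short RNA cut from a hairpin precursor, whose left and right strands give the 5p and the 3p arm. Usually 1 arm is loaded into an Argonaute protein and lowers the output of messenger RNAs that pair with its seed, a few bases near the 5′ end. Blood carries miRNAs of red cells, above all miR-451, beside those of leukocytes and platelets, and the make-up of blood changes after birth as fetal erythropoiesis ends and the immune system matures. In whole blood, fewer cells of a type and less of a miRNA per cell cannot be told apart. Levels are given as normalised CPM, the usual CPM scale with each library's size corrected for composition by TMM factors. These values sum to different totals in each library, and levels of different miRNAs also depend on how well each is captured in a library.

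Newborn replicate 3 stood apart from the other newborn libraries, so results are given with and without it. Libraries held 5774130 to 9977755 counts, and a count of 0 allows up to 0.291 to 0.586 normalised CPM (3 counts, counting error only). The erythroid miR-451 took 7.47%, 8.97% and 59.4% of the counts in newborn replicates 1, 2 and 3, and 28.8% to 39.5% at day 360. The median absolute log2 difference from newborn replicate 3 was 1.72 and 1.56 to the other newborns and 0.941 to 1.51 to the day 360 libraries. Between newborn replicates 1 and 2 it was 0.35, and between day 360 libraries it was 0.685 to 1.18. Markers of blood were found in every library: miR-150 of lymphocytes lay at 2017, 1022 and 529.6 normalised CPM in the newborns and 1599, 2085 and 2549 at day 360, and miR-142-5p, made in blood cells, at 25.2, 36.4 and 486 and 413, 579 and 246. The epithelial list, by contrast, summed to 0 to 4.27 normalised CPM per library over its 2 listed members.

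Between the ages, 71 of 215 tested miRNAs changed, or 33.0% (edgeR quasi-likelihood test, Benjamini-Hochberg adjusted p under 0.05). At day 360, 26 were higher (12.1% of those tested) and 45 lower (20.9%). Some of these falls, named below, passed the filter mainly through newborn counts, and some of the rises mainly through counts of later ages. The 3 libraries of each age did not overlap for 70 of the 215 (32.6%), among them 58 of the 71. Fewer were called without newborn replicate 2 (46) and when only the 6 libraries of both ages were fitted (26, with 9 higher and 17 lower). Without newborn replicate 3 the filter kept 231 miRNAs and 125 of them changed, or 54.1%, with 52 higher (22.5%) and 73 lower (31.6%). The 73 include 9 miRNAs that entered the test only in this fit, through newborn counts, so the filter fixed their direction. Both fits called 69 miRNAs, all 69 in the same direction in both, and 63 of those had the larger change without newborn replicate 3. The calls lost without it were miR-1468 with 1.83 before and 1.58 (edgeR adjusted p = 0.0668) after, and miR-18b with -2.77 before and -1.73 (edgeR adjusted p = 0.161) after. miR-1468 was also lost without newborn replicate 2 or day 360 replicate 3, and miR-18b without 11 other libraries, among them newborn replicate 2 and each day 360 library.

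The split between rises and falls depended on the scaling. Higher miRNAs made up 36.6% of the calls, but 43.3% with DESeq2 size factors, 42.0% when miRNAs over 10% of a library were left out of the scaling, and 13.5% when only library totals were used. The DESeq2 test called 45 higher and 45 lower, and limma on log2(TPM + 1) called 9 higher and 66 lower. The median log2 fold change of all tested miRNAs was -0.29, and it was 0.00, 0.01 and -1.34 under these 3 other scalings, in that order. No called miRNA changed direction with library totals, which kept all 45 falls and 13 of the 26 rises. Under all 3 scalings 38 falls and 13 rises kept their call, and 28 falls and 12 rises kept it whichever of the 15 libraries was left out. The 7 falls lost under another scaling were those of miR-18b, miR-20b, miR-30b-3p, miR-214, miR-491, miR-532-3p and miR-7139-3p. Limma kept all 45 falls but 8 of the 26 rises, those of let-7f, let-7i, miR-7, miR-10a-5p, miR-101, miR-148a-3p, miR-218-5p and miR-2411. With only the 6 libraries the 9 rises were those of let-7d-5p, let-7f, let-7i, miR-10a-5p, miR-29a, miR-99a, miR-182, miR-218-5p and miR-2411. Ratios of 2 miRNAs within 1 library, used below, do not depend on the scaling.

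**Figure D1:**
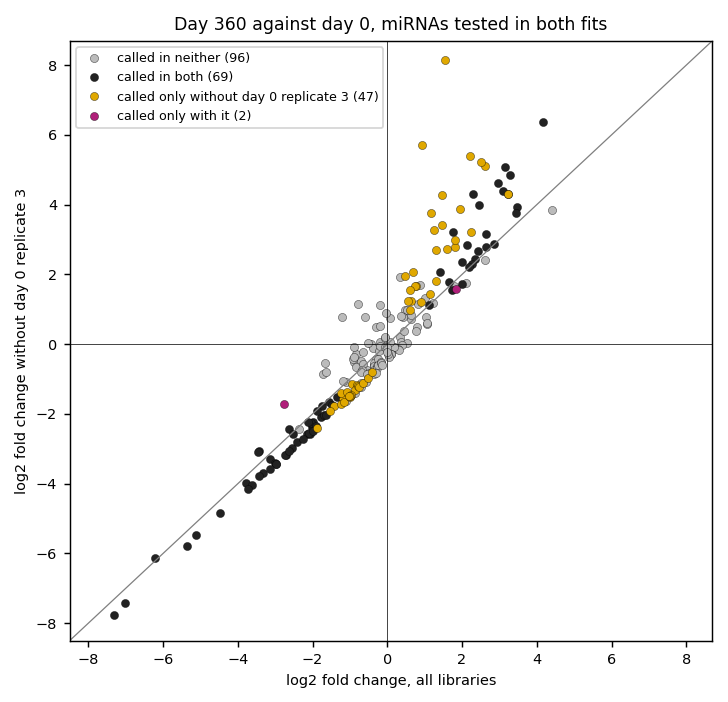
Each point is 1 of the 214 miRNAs tested in both fits, with its log2 fold change at day 360 against day 0 in all libraries (x axis) and without newborn replicate 3 (y axis). The 69 called in both fits lie in the same direction on both axes, and 47 others were called only without that library.

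Mature forms of the let-7 family appear as cells differentiate and repress growth genes such as HMGA2. Of its 9 tested members, taken by name, 4 were higher at day 360 and none lower, beside 12.1% higher over all tested miRNAs. The 9 include let-7d-3p, the other strand of the let-7d hairpin, which was not called (0.28). let-7i had 12436, 8843 and 21924 normalised CPM in the newborns and 142277, 144660.0 and 190810.0 at day 360. The newborn values all lay below every day 360 value, and let-7i went from 1.51% to 2.42% of the counts in newborns to 9.67% to 13.5%. Its log2 fold change was 3.47 ± 0.54 (SE; edgeR adjusted p = 0.000233), and 3.92 (edgeR adjusted p = 3.33e-05) without newborn replicate 3. let-7f had 2835, 2345 and 10916 in newborns and 53473, 54473 and 43852 at day 360, a change of 3.24 ± 0.56 (SE; edgeR adjusted p = 0.000493), or 4.31 without newborn replicate 3. Here newborn replicate 3 was the highest newborn and still below the lowest day 360 library.

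let-7d-5p rose by 1.72 (edgeR adjusted p = 0.00321) and let-7g by 1.42 (adjusted p = 0.0238). Neither rise passed with library totals (let-7d-5p 0.69, edgeR adjusted p = 0.249, and let-7g 0.53, edgeR adjusted p = 0.312). let-7g also lost its call without newborn replicate 1 (1.23, edgeR adjusted p = 0.0926), newborn replicate 2 (1.16, edgeR adjusted p = 0.115) or day 360 replicate 2 (1.40, edgeR adjusted p = 0.0668). The median log2 fold change of the family was 1.42 beside -0.29 over all tested miRNAs, 1.57 beside -0.47 without newborn replicate 3, and 0.53 beside -1.34 with library totals. Summed over the 9 members, the family had 47114, 38453 and 69434 normalised CPM in the newborn and 271828, 276194 and 302742 in the day 360 libraries. let-7b was not analysed here.

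Inside the family, the balance between members differed without overlap for some pairs. The log2 ratio of let-7f to let-7g was -1.94, -1.98 and -1.31 in newborns and 0.29, 0.09 and 0.48 at day 360. let-7g was thus the more frequent of both in every newborn and let-7f in every day 360 library. For let-7a to let-7i the ratio went from 0.41, 0.72 and -1.47 to -2.43, -2.72 and -2.62, a difference of -2.48 (-3.16 without newborn replicate 3). Between let-7f and let-7i, the members with the largest rises, the ratios of the ages overlapped, at -2.13, -1.91 and -1.01 in newborns and -1.41, -1.41 and -2.12 at day 360. Members of this family differ by few bases, and how reads that fit several members were counted is not given in the sources used here.

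Among the other rises, miR-148a-3p was the most abundant, a miRNA linked to B-cell development and to the DNA methyltransferase DNMT1. It had 6379, 12299.7 and 71197 normalised CPM in newborns and 274109, 261490.0 and 158904 at day 360, without overlap. The change was 2.95 ± 0.83 (SE; edgeR adjusted p = 0.0118), and 4.63 (edgeR adjusted p = 0.000176) without newborn replicate 3, whose level lay between both groups. Without newborn replicate 2 the call was lost (2.58, edgeR adjusted p = 0.0549). It took 0.902% and 2.11% of the counts in newborn replicates 1 and 2, 7.85% in replicate 3 and 11.2% to 19.8% at day 360.

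miR-7, known from neurons and endocrine cells, had 2026, 2051 and 19047 in newborns and 85618, 103462 and 17307 at day 360. Day 360 replicate 3 lay below newborn replicate 3, so the ages overlapped. The change was 3.16 ± 0.89 (SE; edgeR adjusted p = 0.0118), 5.09 (edgeR adjusted p = 0.000167) without newborn replicate 3, and it was not called without newborn replicate 2 (2.71, edgeR adjusted p = 0.0548). miR-151-3p, encoded within the focal adhesion kinase gene, had 12100.5, 11035 and 17359.6 in newborns and 88816, 20302 and 108932 at day 360. Its day 360 replicate 2 stayed near the newborn levels while the other 2 were several times higher, and the change was 2.43 ± 0.65 (SE; edgeR adjusted p = 0.00877).

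miR-10a-5p, whose gene lies among the HOX genes, had 91.2, 104 and 102 normalised CPM in newborns and 435, 738 and 969 at day 360 (change 2.85 ± 0.49 SE, edgeR adjusted p = 0.000493). Newborn replicate 3 lay with the other newborns here, and the change without it was 2.88. miR-99a, a regulator of mTOR signalling, was likewise even among newborns, at 3266, 3189 and 3372, and reached 19992, 11539 and 15989.6 at day 360 (change 2.27 ± 0.45 SE, edgeR adjusted p = 0.00158). miR-29a, a repressor of collagen genes, went from 70, 80.1 and 88.6 to 372, 617 and 223 (change 2.35 ± 0.41 SE, edgeR adjusted p = 0.000493). For all 3, every newborn lay below every day 360 library, and the calls held with library totals and without any single library. In limma miR-99a and miR-29a did not pass (limma adjusted p = 0.0563 and 0.067). miR-182, of the miR-183 cluster, which is active in sensory cells and in activated lymphocytes, rose by 2.63 (adjusted p = 0.00627), from 63.4, 67.6 and 85.1 to 261, 689 and 391. miR-2411 rose by 2.63 (adjusted p = 0.000943), from 11.4, 14.1 and 28.7 to 131, 70.9 and 134.

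miR-155-5p, which activated immune cells make, had 58.2, 43.7 and 22.8 in newborns and 125, 259 and 117 at day 360. Newborn replicate 3 was its lowest library, and the rise of 2.01 (edgeR adjusted p = 0.00321) was 1.73 without it. With library totals it did not pass (0.93, edgeR adjusted p = 0.17). miR-101, which targets the histone methyltransferase EZH2, rose by 2.30 (adjusted p = 0.0273). Its levels were 24.2, 20.4 and 221 in newborns and 317, 743 and 249.6 at day 360, so newborn replicate 3 almost reached the day 360 range, and the change without it was 4.31 (edgeR adjusted p = 4.19e-05). miR-101 lost its call without newborn replicate 1 (1.87, edgeR adjusted p = 0.0997), newborn replicate 2 (1.83, edgeR adjusted p = 0.0975) or day 360 replicate 2 (1.77, edgeR adjusted p = 0.118), and with library totals (1.53, edgeR adjusted p = 0.0769). miR-24-1-5p rose by 2.01 (adjusted p = 0.0106), but not with library totals (1.06, edgeR adjusted p = 0.123) or without newborn replicate 2 (1.92, edgeR adjusted p = 0.0528).

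Some rises rested on scarce miRNAs. miR-218-5p, miR-335 and miR-19a had newborn means of 0.851, 0.785 and 0.292 normalised CPM and passed the filter mainly through later ages. The filter favoured rises for these, so their calls are no separate support for that direction. miR-218-5p, made with the Slit genes in vessels and neurons, went from 0.984, 0.405 and 1.16 to 17.2, 7.03 and 3.86 normalised CPM (3.44 ± 0.73 SE, edgeR adjusted p = 0.00243) and kept its call without any single library. miR-335, encoded in the imprinted MEST gene, went from 0.109, 0.405 and 1.84 to 3.88, 17.4 and 2.46 (3.29 ± 0.91 SE, edgeR adjusted p = 0.0106). Its call was lost without newborn replicate 2 (2.98, edgeR adjusted p = 0.0548) or day 360 replicate 2 (2.07, edgeR adjusted p = 0.0947). Likewise miR-19a and miR-19b, both of the miR-17~92 cluster, rose by 4.16 and 3.09 (edgeR adjusted p = 0.0103 and 0.0225). Their day 360 levels were 1.52, 14.8 and 0.527 and 11.2, 94.2 and 3.51, so replicate 2 stood far above the others, and without it the changes were 1.79, edgeR adjusted p = 0.207 and 0.80, edgeR adjusted p = 0.455. Without newborn replicate 2 both were lost too (miR-19a 3.77, edgeR adjusted p = 0.0548; miR-19b 2.74, edgeR adjusted p = 0.0906), and miR-19b also without newborn replicate 1 (2.73, edgeR adjusted p = 0.0871).

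**Figure D2:**
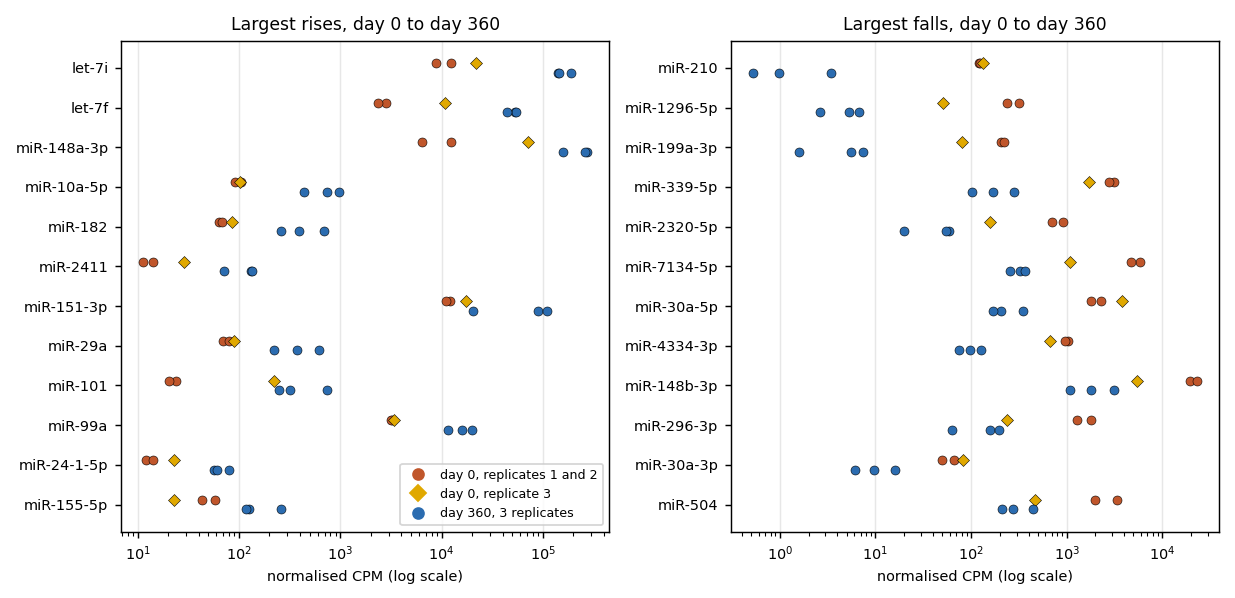
Normalised CPM (log axis) of the 12 called miRNAs with the largest rise (left) and the 12 with the largest fall (right) among those whose ages did not overlap and whose mean reached 50 normalised CPM at day 0 or day 360. Each point is 1 library, and the diamonds show newborn replicate 3, which lies with the other newborns for miR-210 and miR-10a-5p and nearer to day 360 for miR-101, miR-296-3p and miR-504.

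The largest fall among the more abundant miRNAs was that of miR-210, the miRNA that hypoxia induces through HIF. It had 122, 123 and 134 normalised CPM in the newborns and 3.46, 0.977 and 0.527 at day 360. The newborn libraries lay close together, newborn replicate 3 included, and far above each day 360 library. The log2 fold change was -6.21 ± 0.73 (SE; edgeR adjusted p = 5.19e-05), and -6.15 (edgeR adjusted p = 9.79e-06) without newborn replicate 3. Its mean was lower at each later age, with 127, 42.1, 12.8, 2.48 and 1.66 at days 0, 30, 60, 180 and 360.

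miR-199a-3p, a repressor of mTOR and MET that platelets and fibroblasts hold, had 208, 223 and 79.6 in newborns and 5.54, 7.42 and 1.58 at day 360 (-5.13 ± 0.63 SE, edgeR adjusted p = 5.19e-05). Its reads cannot be told apart from those of miR-199b-3p. Its other arm, miR-199a-5p, fell by 2.53 (adjusted p = 0.00362), and miR-214 from the same transcript had -1.99 (adjusted p = 0.0418). miR-214 overlapped, since newborn replicate 3 had 4.46 beside 9.14, 5.47 and 14.6 at day 360, and its call ended with DESeq2 size factors (adjusted p = 0.0877) and with scaling without the most abundant miRNAs (adjusted p = 0.11). Leaving out any of 10 libraries also ended it (edgeR adjusted p up to 0.259, without day 360 replicate 2). Those were newborn replicates 1 and 2, day 360 replicates 1 and 2, day 30 replicates 2 and 3, day 60 replicate 3 and all 3 of day 180. miR-145-5p, the smooth-muscle miRNA, fell by 3.14 (adjusted p = 0.00877), though not without newborn replicate 2 (-2.38, edgeR adjusted p = 0.0548).

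miR-1296-5p went from 319, 237 and 51.4 to 6.79, 5.28 and 2.63 normalised CPM (-5.36 ± 0.73 SE, edgeR adjusted p = 8.67e-05). miR-339-5p went from 3139, 2792 and 1712 to 169, 281 and 103 (-3.79 ± 0.48 SE, edgeR adjusted p = 5.51e-05), and miR-4334-3p from 1024, 961 and 668 to 97.9, 129 and 74.2 (-3.14, adjusted p = 0.000108). In each of these, every newborn exceeded every day 360 library. The log2 fold changes of miR-7134-5p and miR-2320-5p were -3.61 and -3.73 (edgeR adjusted p = 0.000198 and 0.000437). The same pattern, with newborn replicate 3 nearest to day 360, held for miR-296-3p, at 1802, 1288 and 241 and 157, 63.5 and 198, and for miR-504, a regulator of p53, at 3335, 1974 and 472 and 444, 213 and 276. Their changes were -2.99 and -2.63 (edgeR adjusted p = 0.00194 and 0.00627), and -3.45 and -3.07 without that library. All 7 calls held under each scaling and without any single library.

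In the miR-30 family, taken by name, 5 of 10 tested arms fell and none rose, beside 20.9% lower and 12.1% higher over all tested miRNAs. The family is known to restrain the epithelial to mesenchymal transition. Of its 5p arms, miR-30d included, only miR-30a-5p was called, and the other called falls were 3p arms. miR-30b-5p, miR-30c-5p, miR-30d and miR-30e-5p were not called, and miR-30e-5p had a positive change. The 5p and 3p arms are different strands, so the count does not describe the 5p arms as a group. miR-30a-5p had 1782, 2275 and 3824 normalised CPM in newborns and 205, 349 and 171 at day 360 (-3.44 ± 0.62 SE, edgeR adjusted p = 0.00059), and newborn replicate 3 was its highest library. miR-30a-3p fell by 2.64 (adjusted p = 0.00194), miR-30c-3p had -4.47 (adjusted p = 0.000493) and miR-30c-1-3p had -2.03 (adjusted p = 0.00843). The last was not called without day 360 replicate 2 (-1.70, edgeR adjusted p = 0.0619). miR-30b-3p fell by 1.90 (adjusted p = 0.0231), a call that ended with DESeq2 size factors (adjusted p = 0.0544) and without any of 8 libraries (adjusted p up to 0.188, without day 360 replicate 2). These were newborn replicates 1 and 2, day 360 replicates 1 and 2, day 30 replicate 3 and all 3 of day 180. The median of the family, over 5p and 3p arms together, was -1.56 beside -0.29 over all tested miRNAs. With library totals it was -2.50 beside -1.34. Without newborn replicate 3, 6 members were lower and 2 were higher. The added calls were miR-30d, which was lower, and miR-30e-5p and miR-30e-3p, which were higher.

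Smaller falls of abundant miRNAs included miR-181a, which sets T-cell receptor sensitivity, at 21349.9, 15208 and 1583 in newborns and 3033, 3987 and 2042 at day 360 in normalised CPM. Newborn replicate 3 lay below the whole day 360 range. The change of -2.07 (edgeR adjusted p = 0.0209) was -2.58 (edgeR adjusted p = 8.59e-05) without it, but did not pass without newborn replicate 1 (-1.46, edgeR adjusted p = 0.124), newborn replicate 2 (-1.91, edgeR adjusted p = 0.0603), day 360 replicate 1 (-1.79, edgeR adjusted p = 0.0846) or day 360 replicate 3 (-1.77, edgeR adjusted p = 0.0796). miR-221-3p, a regulator of KIT in erythroid progenitors, went from 772, 669 and 491 to 209.8, 359 and 183 (-1.36, adjusted p = 0.00858), and without day 360 replicate 1 the change was -1.02, edgeR adjusted p = 0.0847. miR-107, a sister of miR-103 that acts on insulin signalling, fell by 1.75 (adjusted p = 0.00605), from 675, 487 and 521 to 181, 225 and 93.4, and kept its call without any single library. The other called falls went from -3.44 (miR-9851-3p) to -1.49 (miR-491). The most abundant of these was miR-744, at 2319.8, 2119 and 309 and 245, 150.1 and 327 (-2.72 ± 0.61 SE, edgeR adjusted p = 0.00321). Among them miR-1343, miR-7137-5p, miR-331-3p, miR-34a, miR-491, miR-500 and miR-532-3p lost their calls without 2 to 10 of the libraries.

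Some newborn miRNAs were nearly absent at day 360. miR-455-3p, known from cartilage, had 325 counts over the newborn libraries and 1 over the day 360 libraries, a ratio of normalised levels of 199.8 (exact 95% interval 35.6 to 7915, counting error only). miR-127, of the imprinted DLK1-DIO3 region that is active in fetal tissue and placenta, had 72.5, 44.7 and 12.8 normalised CPM in newborns and 0.554, 0.195 and 0.176 at day 360 (-7.01 ± 1.21 SE, edgeR adjusted p = 0.000493). It was the only one of 13 listed members of that region with enough counts to be tested in all libraries. miR-370 of the same region had 17.5, 9.11 and 0.678 normalised CPM in newborns and 3 counts in all at day 360, a ratio of 52.7 (17.8 to 257). miR-432-5p, miR-323, miR-493-3p and miR-493-5p had no count at day 360. Against the mean day 360 floor of 3 counts per library, their newborn means were at least 3.27-fold, 2.98-fold, 2.03-fold and 1.28-fold higher. These bounds do not hold for each newborn library. miR-432-5p lay below that floor in newborn replicate 3 (0.194 normalised CPM), and miR-493-5p in newborn replicates 1 and 3 (0.437 and 0.0969). Summed, the region had 99.3, 62.1 and 16.7 normalised CPM in the newborn and 0.692, 0.391 and 1.05 in the day 360 libraries, so newborn replicate 3 was the lowest newborn. Without newborn replicate 3, 5 more members entered the test, each through its newborn counts alone, so their direction was fixed by the filter and no count of calls is read from them. miR-127 and miR-455-3p passed the filter mainly through newborn counts too, with means of at most 1.81 and 0.937 normalised CPM at the later ages. The same holds for miR-9851-3p (at most 0.766). The filter favoured falls for these, so their calls, counted among the falls, are no separate support for that direction.

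Both arms of a hairpin come from 1 precursor, and in 35 hairpins, paired by name, both were tested. A name can cover several loci, so a pair need not come from 1 precursor. miR-30c had a further 3p arm, miR-30c-1-3p, and reads of miR-199a-3p cannot be told apart from those of miR-199b-3p. In 19 of them at least 1 arm changed. Both arms moved together in 3 (miR-10a up, miR-30a and miR-199a down), in opposite directions in 2, and in 14 only 1 arm passed the test. That 1 arm passed and the other did not is no test of a difference, so the log2 ratio of the 5p to the 3p arm was compared between the ages within libraries. In 13 of the 19 the ratios of the ages did not overlap, and each of these had an exact permutation p = 0.1 (two-sided), the smallest that 3 against 3 libraries can give. Adjusted over the 66 pairs of this kind, none was below 0.147, so no single pair can pass a threshold in this design. The 19 were chosen for a called arm in the same libraries, which favours ratios that differ. Hairpins without a called arm were not compared, so the 13 of 19 is a description.

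The 5p arm of miR-22, a miRNA of erythroid maturation, rose while its 3p arm fell. miR-22-5p had 6.56, 3.95 and 15 normalised CPM in newborns and 38.9, 23.3 and 49 at day 360 (2.12 ± 0.51 SE, edgeR adjusted p = 0.00492). miR-22-3p had 873, 553 and 559.6 and 220.5, 205 and 241 (-1.57 ± 0.48 SE, edgeR adjusted p = 0.0181). The 5p to 3p log2 ratio was -7.03, -7.09 and -5.21 in newborns and -2.50, -3.13 and -2.30 at day 360, so the 3p arm stayed the major one in all 6. The fall of miR-22-3p was lost without newborn replicate 1 (-1.31, edgeR adjusted p = 0.0808), any day 360 library (adjusted p = 0.0603 to 0.177), day 30 replicate 3 (-1.36, edgeR adjusted p = 0.0779) or day 180 replicate 2 (-1.36, edgeR adjusted p = 0.0565). The rise of miR-22-5p did not pass with library totals (1.26, edgeR adjusted p = 0.069).

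In miR-7139 the arms also moved apart. The changes of the 5p and the 3p arm were 1.66 and -2.10 (edgeR adjusted p = 0.00843 and 0.029), and the log2 ratio went from -0.61, -0.14 and 2.58 to 4.25, 4.52 and 3.62. The major arm thus differed between newborn replicates 1 and 2, where it was the 3p arm, and the other 4 libraries, where it was the 5p arm. The 5p rise was lost without day 360 replicate 3 (1.25, edgeR adjusted p = 0.0567) and with library totals (0.68, edgeR adjusted p = 0.212). The 3p fall was lost with DESeq2 size factors (adjusted p = 0.0727) and without any of 9 libraries (adjusted p up to 0.259). Those were newborn replicates 1 and 2, day 360 replicates 1 (-1.36, edgeR adjusted p = 0.25) and 2 (-1.31, edgeR adjusted p = 0.259), day 30 replicate 3, day 60 replicate 3 and all 3 of day 180.

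In miR-148a and miR-148b the major 3p arms moved in opposite directions, while neither 5p arm was called. miR-148a-5p had 97.4, 138 and 124 normalised CPM in newborns and 115, 139 and 53.5 at day 360, so the ages overlapped. The 5p to 3p log2 ratio of miR-148a went from -6.03, -6.47 and -9.16 to -11.22, -10.88 and -11.53, a difference of -3.99 (-4.96 without newborn replicate 3). miR-148b-5p had 50.7, 63.1 and 119 and 118, 145 and 35.8, again with overlap. Its ratio to miR-148b-3p went the other way, from -8.59, -8.52 and -5.52 to -3.95, -4.44 and -4.92. For miR-151 the ratio went from -6.50, -6.35 and -5.99 to -8.82, -7.56 and -10.11.

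The arm balance of miR-2320 turned over. Its log2 ratio of 5p to 3p was 2.21, 1.79 and 1.58 in newborns and -2.03, 0.03 and -4.57 at day 360. The 5p arm was the major one in all 3 newborns and clearly the minor one in 2 of the 3 day 360 libraries. Differences of the same sign were seen for miR-7134 (-3.27) and miR-339 (-2.87), whose 5p arms fell. The ratio moved towards the 5p arm in miR-30c (3.93), miR-199a (2.54), miR-331 (2.14), miR-532 and miR-221 (1.20), also without overlap. With 5 in place of 1 added to each count, the difference of miR-30c was 2.93. In let-7d, miR-10a, miR-30a, miR-30b, miR-455 and miR-7137 the ratios overlapped.

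**Figure D3:**
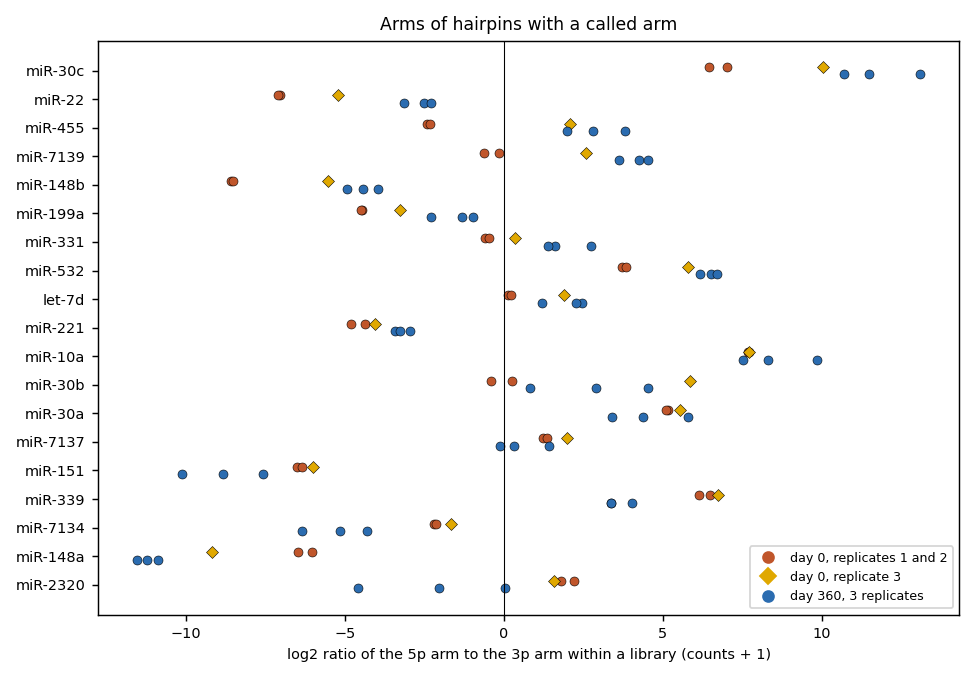
Log2 ratio of the 5p arm to the 3p arm within each library (counts + 1) for the 19 hairpins (paired by name) with a called arm, with 1 point per library. The ages are apart for 13 of them, from miR-30c and miR-22 at the top, where the 5p share rose, to miR-2320 at the bottom, where it fell.

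miRNAs of 1 family share most of their targets, so the balance between members was compared in the same way for 47 pairs with a called member. In 32 of the 47 the ratios of the ages did not overlap. The choice of pairs with a called member favours this, and pairs without one were not compared, so the count is a description. The largest difference was that of miR-148a-3p to miR-148b-3p, with log2 ratios of -1.62, -0.92 and 3.71 in newborns and 7.24, 6.38 and 7.19 at day 360. miR-148b-3p was the more frequent in newborn replicates 1 and 2, and miR-148a-3p in newborn replicate 3 and at day 360. The difference was 6.54, or 8.20 without newborn replicate 3. miR-148b-3p itself had 19585, 23238 and 5443 normalised CPM in newborns and 1816, 3148 and 1092 at day 360 (-2.99 ± 0.52 SE, edgeR adjusted p = 0.000493). Both differ by few bases, so shared reads cannot be told from either.

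miR-30a-5p was compared with its 4 tested 5p sisters. Its log2 ratio to miR-30e-5p went from 3.48, 3.70 and 2.24 to -1.87, -3.06 and -0.89, so miR-30a-5p was the more frequent in every newborn and miR-30e-5p in every day 360 library. Against miR-30c-5p it went from 0.01, 0.45 and -0.51 to -3.28, -3.29 and -3.37. The ratios to miR-30b-5p and miR-30d differed by -2.73 and -2.77, all 4 without overlap. miR-10a-5p gained on miR-10b by 2.80 and miR-99a on miR-100 by 3.11. In both, newborn replicate 3 lay with the other newborns or farther from day 360: the ratio of miR-99a to miR-100 was 6.91, 7.24 and 6.72 in newborns and 10.11, 10.30 and 9.82 at day 360. miR-20b, from the X-linked paralogue of miR-17~92, lost against miR-20a, from 1.03, 1.67 and 3.72 to 5.71, 6.49 and 6.16. miR-103 gained on miR-107 by 1.27, without overlap.

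The ratios of miR-29a to miR-29b (-0.13) and to miR-29c (0.55) overlapped between the ages, as did those of miR-181a to miR-181b, miR-181c and miR-181d-5p. miR-29b rose by 2.45 (edgeR adjusted p = 0.0431), from 1.09, 0.709 and 6.01 to 13.3, 27.9 and 1.93 normalised CPM, and day 360 replicate 3 lay below newborn replicate 3. Its call ended under each other scaling (adjusted p = 0.0516 to 0.111) and without any of 10 libraries (adjusted p up to 0.253, without day 360 replicate 2, where the change was 1.48). Those were newborn replicates 1 and 2, day 360 replicates 1 and 2, all 3 of day 180, day 30 replicates 2 and 3 and day 60 replicate 3.

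Neighbouring miRNA genes are often cut from 1 transcript. By the RefSeq annotation of assembly Sscrofa11.1, used only for which genes lie within 10 kb of each other, 29 groups of neighbours held at least 2 tested miRNAs. A mature miRNA made at several loci cannot be assigned to a copy. In the miR-17~92 cluster, miR-19a and miR-19b were called higher and the other 5 tested arms of its miRNAs were not called. Of the 3 arms at miR-214 and miR-199a-1 all were lower, as given above. miR-99a rose beside let-7c, which was not called, at 2757, 2249 and 647 normalised CPM in newborns and 2469, 1008 and 2574 at day 360. miR-145-5p fell beside miR-143-3p, which was not called (15.4, 28.7 and 49.3 and 15.6, 20.3 and 13.7). At the locus of let-7a-2, let-7f-2 and let-7d, let-7f and let-7d-5p rose and let-7a and let-7d-3p were not called. On the X-linked paralogue, miR-19b was higher and miR-20b and miR-18b were lower.

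Without newborn replicate 3, 56 further miRNAs were called, 9 of which were not tested in all libraries. Those 9 were all lower and entered the test through newborn counts, so the filter fixed their direction. For 45 of the 56, the level in newborn replicate 3 lay within the range of day 360 or beyond it, and for 11 it lay between that range and the other newborns. Of the 69 called in both fits, it lay within or beyond the day 360 range for 13, between for 45, and with the other newborns for 11. The choice to leave out a library that differs fixes part of this pattern, so it is given as a description.

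The red-cell miRNAs miR-451 and miR-144, made from 1 transcript under the erythroid factor GATA1, belong to the 56. miR-451 had 52808, 52420.1 and 538674 normalised CPM in newborns and 397480.0, 590299 and 535134 at day 360. Its change was 1.24 ± 0.75 (SE; edgeR adjusted p = 0.224) in all libraries and 3.28 ± 0.48 (SE; edgeR adjusted p = 7.22e-05) without newborn replicate 3. miR-144 had 6.67, 3.75 and 97.6 in newborns and 89.5, 181.5 and 25.6 at day 360, a change of 4.27 ± 0.81 (SE; edgeR adjusted p = 0.000525) without that library. In both, newborn replicate 3 was at the day 360 level, above newborn replicates 1 and 2. Another red-cell miRNA, miR-486, also belongs to the 56, but in the other direction. It had 88516, 41657 and 13449 in newborns and 27725, 14612 and 41300.4 at day 360, and its change was -0.78 ± 0.55 (SE; edgeR adjusted p = 0.292), or -1.19 ± 0.42 (SE; edgeR adjusted p = 0.0245) without newborn replicate 3. Without newborn replicate 1 it turned to 0.035, uncalled. miR-22-3p and miR-22-5p, on the erythroid list too, are given above.

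Leukocyte miRNAs were among the same 56. miR-142-3p, made in all blood cells, had 6.67, 8.4 and 111 in newborns and 124, 616 and 31.8 at day 360 (5.10 ± 1.04 SE, edgeR adjusted p = 0.000901 without newborn replicate 3). miR-142-5p from the same hairpin had 3.75 ± 0.46 (SE; edgeR adjusted p = 1.65e-05) on the same terms. miR-21, induced by inflammation, had 392, 459.9 and 3988 and 5650.2, 10406 and 2495 (3.87 ± 0.67 SE, edgeR adjusted p = 0.00028). In these too the newborn replicate 3 value lay inside the day 360 range, and with it none of them was called (edgeR adjusted p = 0.0602, 0.263 and 0.0673). Lower only without newborn replicate 3 were miR-92a, the most abundant member of miR-17~92, at 138982, 109501 and 14139.6 and 28339, 36006 and 46951 (-1.73 ± 0.38 SE, edgeR adjusted p = 0.00167), and miR-423-5p (-1.67 ± 0.49 SE, edgeR adjusted p = 0.00914). miR-15b (-1.57 ± 0.32 SE, edgeR adjusted p = 0.000971), miR-1306-5p (-1.52 ± 0.34 SE, edgeR adjusted p = 0.00186) and miR-7137-3p (-1.50 ± 0.57 SE, edgeR adjusted p = 0.0375) were likewise lower.

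The most abundant miRNAs gave the same picture in shares of counts. In newborn replicates 1 and 2, miR-92a took 19.7% and 18.7% of the counts, miR-486 12.5% and 7.13%, miR-423-3p 7.86% and 7.31%, and miR-30d 7.29% and 7.97%. In newborn replicate 3 these took 1.56%, 1.48%, 0.581% and 1.89%. At day 360 miR-92a took 2.05% to 3.31% and miR-30d 1.41% to 1.65%, near newborn replicate 3. For let-7i newborn replicate 3 (2.42%) lay nearer to the other newborns.

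**Figure D4:**
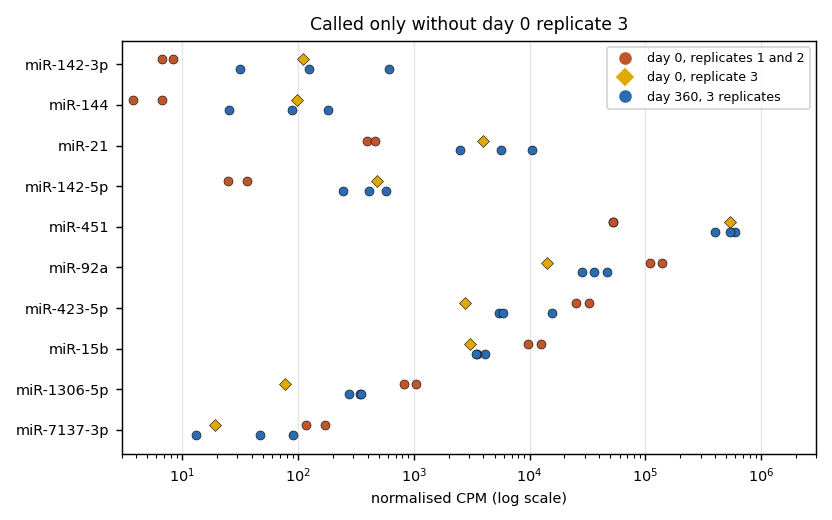
Normalised CPM (log axis) of the 5 miRNAs with the largest rise and the 5 with the largest fall among those called only without newborn replicate 3 and with a mean of at least 50 normalised CPM at either age. Each point is 1 library, and the diamond of newborn replicate 3 lies inside the day 360 range or beyond it in all 10.

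Lists of miRNAs known from single blood cell types are read against the 12.1% higher and 20.9% lower over all tested miRNAs. Of 7 erythroid arms, 1 was higher and 1 lower. The list summed to 144331, 96124 and 562610.0 normalised CPM in the newborn and 428113, 613265 and 577894 in the day 360 libraries, with newborn replicate 3 inside the day 360 range. Most of this sum was miR-451 in newborn replicate 3 (538674) and at day 360, while miR-486 was the larger part in newborn replicate 1 (88516). The sum thus does not describe the list as a whole. Of 10 platelet arms, 1 was higher (miR-151-3p) and 3 lower (both arms of miR-199a and miR-221-3p). The myeloid list had 1 of 7 tested arms higher (miR-24-1-5p) and none lower, with a median of 1.18 (2.35 without newborn replicate 3). miR-223, its best-known member, was not analysed here. Of 8 lymphoid arms, miR-155-5p and miR-29a were higher and miR-181a was lower. The list median was 0.43, and -0.66 with library totals (-0.29 and -1.34 over all tested miRNAs). The part of cell make-up in the other results was not tested.

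Of 10 endothelial and mesenchymal arms, 4 were lower (both arms of miR-199a, miR-214 and miR-145-5p) and miR-218-5p was higher, beside 20.9% lower and 12.1% higher over all tested miRNAs. With DESeq2 size factors, or scaling without the most abundant miRNAs, 3 were lower. Their sums were of one order in all libraries, with 469, 462 and 477 normalised CPM in the newborn and 422, 287 and 297 in the day 360 libraries. The muscle list summed to 21.9 to 139 normalised CPM per library. Within it miR-133a-3p fell by 3.46 (edgeR adjusted p = 0.00574), and miR-499-5p rose by 1.77 (adjusted p = 0.0444). miR-133a-3p passed the filter mainly through newborn counts, which favoured a fall. Its mean was at most 1.14 normalised CPM at the later ages. The rise of miR-499-5p, from 14.5, 8.81 and 70.6 to 100, 113 and 108, ended under each other scaling and without any of 11 libraries (adjusted p up to 0.157, without newborn replicate 1). Those were newborn replicates 1 and 2, all 3 of day 360, all 3 of day 180, day 30 replicates 2 and 3 and day 60 replicate 3. The brain list, which holds miR-7, summed to 4831, 4759.9 and 21808 normalised CPM in the newborn and 92602, 107652 and 24050.4 in the day 360 libraries, and the liver list to 25.6 to 274 per library. Of the brain list, miR-7 and miR-128 rose. miR-128, which also acts in lymphoid cells, rose by 1.12 (adjusted p = 0.0142), from 2784, 2686 and 2701 to 6932, 4124 and 6713, but not with library totals (0.12, edgeR adjusted p = 0.83) or without newborn replicate 2 (1.12, edgeR adjusted p = 0.0548).

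The other lists are also read against 12.1% higher and 20.9% lower over all tested miRNAs. Several of their counts lie near those shares, and all are small, so they are descriptions only. Of the innate response, 1 of 6 tested miRNAs was higher (miR-155-5p). In the miR-99/100 and miR-125 family 1 of 5 was higher (miR-99a), and in the miR-29 family 2 of 3. At the HOX loci 2 of 4 arms were higher, both of miR-10a. Of these, miR-10a-3p passed the filter mainly through later ages, which favoured a rise. The rise of miR-10a-3p, a scarce arm at 2.22, 2.15 and 0.878 normalised CPM at day 360 (0.328, 0.405 and 0.388 in newborns, change 2.18, edgeR adjusted p = 0.0142), was lost without newborn replicate 1 (2.12, edgeR adjusted p = 0.0624) or 2 (2.25, edgeR adjusted p = 0.0548) and with library totals (1.21, edgeR adjusted p = 0.189). Of 13 arms of miR-17~92 and its paralogues, 2 were higher and 2 lower (miR-20b and miR-18b). miR-20b fell by 2.12 (adjusted p = 0.0344), from 60.3, 34.4 and 33.6 to 7.2, 19.7 and 2.63, but not with DESeq2 size factors (adjusted p = 0.0633) or without newborn replicate 1 or 2, day 360 replicate 1 or 3, or day 30 replicate 2 (adjusted p up to 0.116). miR-26a and the 3 tested miR-15/16 members were not called. Of the miR-181 family 1 of 4 was lower, of the miR-183 cluster 1 of 3 higher, of the miR-23/27/24 clusters 1 of 8 higher, and of the miR-148 family 1 of 5 higher and 1 lower. The liver list had 2 tested members, neither called, and the 9 listed members of the miR-424/450 cluster had too few counts.

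**Figure D5:**
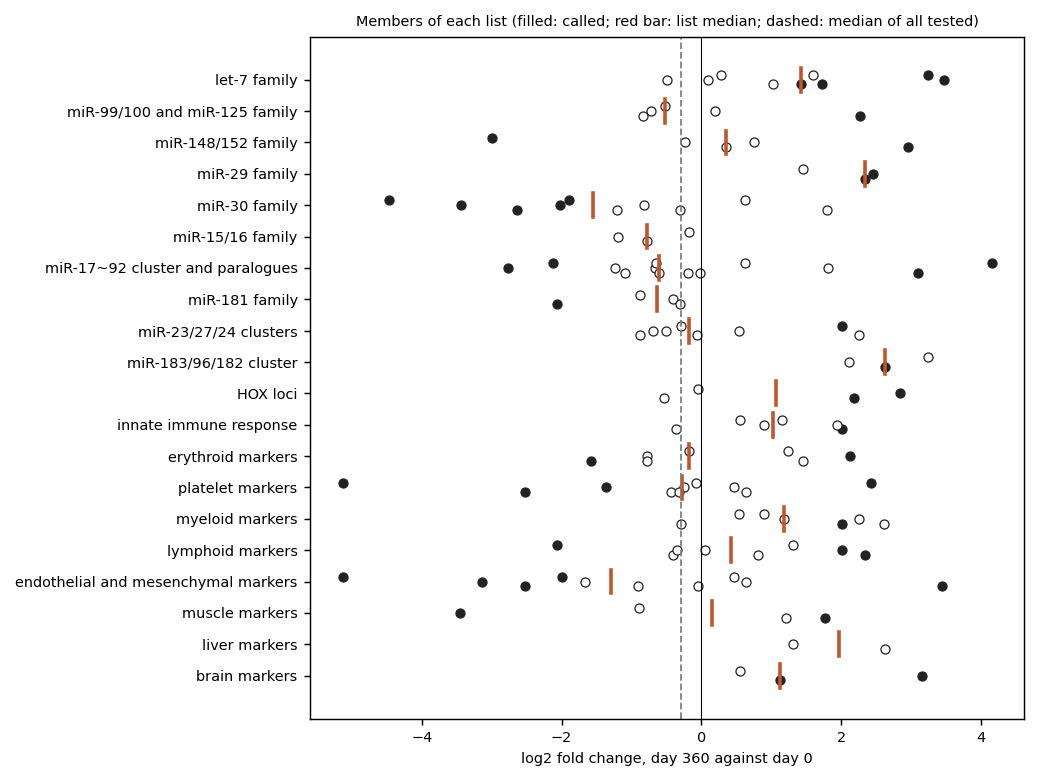
Log2 fold change at day 360 against day 0 (x axis) of the tested members of each list with at least 2 tested members. Filled points passed the test and open points did not, red bars mark list medians, the dashed line marks the median of all 215 tested miRNAs at -0.29, and the let-7 family lies mostly to its right and the miR-30 family mostly to its left.

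The means of days 30, 60 and 180 show when the called miRNAs reached their day 360 side. Of the 45 falls, 34 were past the midpoint between the log2 means of day 0 and day 360 at day 30 and stayed past it, and of the 26 rises 16 were. Because these miRNAs were chosen for the difference between the end points, this is a description. For 4 rises and 5 falls the midpoint was passed only at day 360. On days 0, 30, 60, 180 and 360 the mean level of miR-151-3p in normalised CPM was 13498, 20261, 12659, 18769 and 72683, and miR-221-3p had 644, 546, 586, 663 and 251. miR-30a-5p, at 2627, 978, 2568, 1099.9 and 242, was back near its newborn mean at day 60. The mean of miR-182 was highest at day 30, with 72, 738, 162, 133 and 447.

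The 78 untested miRNAs were scarce. In 54 of them no library of either age had more than 10 counts, and 7 had no count at either age. miR-205, an epithelial miRNA, was among those with more counts in newborns (58 over the 3 libraries, against 3 at day 360), at 4.27, 1.01 and 0.872 normalised CPM. miR-133b of muscle had 34 counts in newborns, mostly in replicate 3, and 3 at day 360. miR-490-3p had 44 counts in newborns and none at day 360, and miR-503 had 36 and 3. In the other direction, miR-184 had 9 counts in newborns and 99 at day 360, of which 90 were in 1 library. The rest were not tested in all libraries, and most had few counts.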

How the data were processed

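Small RNA libraries of pig blood were compared between day 0 and day 360, with 3 libraries per age. RNA came from a mirVana kit, per the labels' protocols. The submitters' processing notes list CASAVA 1.8.2 and HISAT2 2.0.4 but not what each did. Which tool counted reads, and on which miRNA release or build, is not given in the sources used here. The authors deposited whole-number read counts per miRNA and TPM values made from them. The deposited counts were tested, and the deposited TPM values served only as an alternative. Of 295 rows, miR-199b-3p and miR-9-1 repeated others and were dropped.

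edgeR 4.0.16 in R 4.3.3 fitted 1 quasi-likelihood model to all 15 libraries (TMM factors, filterByExpr by age with minimum count 10 and total 15), with the contrast of day 360 against day 0 and Benjamini-Hochberg adjustment over the 215 tested. The same was done without day 0 replicate 3. The procedure was tested on simulated counts. Ratios are log2 of counts plus 1, within a library, with an exact two-sided permutation test. Families were taken by name, because no mature sequences were at hand to group them by seed. Alternatives were other scalings and filters, DESeq2 1.42.0, limma 3.58.1, only the 6 libraries of both ages, a robust spread, a replicate block and each library left out.

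Named miRNAs were the 12 largest called rises and falls without overlap and with a mean of at least 50 normalised CPM, the 5 most abundant per age, called and abundant members of lists, family members and other arms of called miRNAs, the 5 largest rises and falls called only without day 0 replicate 3, and calls lost without it. Some smaller called falls, miR-143-3p and the untested miRNAs were named after their values were seen. The members, lists and tests were chosen with earlier results of these data known.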

Additional observations from a re-analysis of the deposited data

How the results depend on the processing

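The count of 71 called miRNAs (26 higher, 45 lower) lay between 46 and 125 when 1 of the 15 libraries was left out, with 13 to 52 higher and 33 to 73 lower. The lowest total came without newborn replicate 2 and the highest without newborn replicate 3. With library totals only, 13 were higher and 83 lower. DESeq2 called 45 higher, and limma on log2(TPM + 1) called 9 higher. With only the 6 libraries of both ages 26 were called (9 higher, 17 lower), all among the 71. Without newborn replicate 3, library totals gave 30 higher and 125 lower, and limma gave 22 higher and 130 lower, both alternatives added after seeing the data. The cause was not tested. Same-numbered libraries showed no sign of pairing: deviations from the age means correlated at -0.067, -0.494 and -0.547 between them. Deviations from a mean of 3 libraries are tied to each other, and newborn replicate 3 weighs heavily in them. These values therefore cannot show whether the same animals were bled. With the replicate number as a block, 66 were called (23 higher, 43 lower), all among the 71. The median of a list moved by more than the median standard error of its members for 21 lists with library totals and for 15 with limma. Of the 66 ratios, 2 moved by more than their pooled standard deviation within the ages with a prior count of 5 (miR-19a to miR-19b and miR-18a to miR-18b). Those of the arms of miR-455 (from 3.76 to 2.21) and miR-30c (from 3.93 to 2.93) also shrank, by less than that spread.

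None of the 71 called miRNAs changed direction under any alternative run on all 15 libraries or with 1 of them left out. Of the 73 uncalled miRNAs among the 144 named by the rule, 39 changed sign at least once, and no such value was called, so no direction is read from these. In the DESeq2 test, the log2 fold changes with the other sign were miR-10b 0.167, miR-181d-5p 0.000533, miR-191 0.0471, miR-221-5p 0.174, miR-222 0.0312, miR-23a 0.126, miR-26a 0.0104, miR-363 0.266 and miR-7134-3p 0.313. With DESeq2 size factors, the log2 fold changes with the other sign were miR-10b 0.167, miR-181d-5p 0.00112, miR-191 0.0471, miR-221-5p 0.176, miR-222 0.0316, miR-23a 0.126, miR-26a 0.0104, miR-363 0.266 and miR-7134-3p 0.313. With library totals only, the log2 fold changes with the other sign were let-7a -0.0353, let-7c -0.984, let-7d-3p -0.810, miR-126-3p -0.243, miR-146a-5p -0.0484, miR-148b-5p -0.584, miR-150 -0.253, miR-152 -0.109, miR-17-5p -0.254, miR-2320-3p -0.319, miR-24-3p -0.406, miR-28-3p -1.06, miR-331-5p -0.884, miR-532-5p -0.346, miR-9 -0.350 and miR-99b -0.859. In limma, the log2 fold changes with the other sign were let-7c -0.764, let-7d-3p -0.458, miR-126-3p -0.230, miR-146a-5p -0.111, miR-148b-5p -0.748, miR-150 -0.00272, miR-152 -0.162, miR-17-5p -0.405, miR-2320-3p -0.467, miR-24-3p -0.425, miR-28-3p -0.946, miR-331-5p -0.770, miR-532-5p -0.385, miR-9 -0.323 and miR-99b -0.900. With no low-count filter, the log2 fold changes with the other sign were miR-10b 0.0409, miR-221-5p 0.000530, miR-23a 0.0302, miR-363 0.102 and miR-7134-3p 0.0149. With only the 6 libraries, the log2 fold changes with the other sign were miR-10b 0.00736, miR-363 0.0759 and miR-7134-3p 0.115. With the replicate block, the log2 fold changes with the other sign were miR-28-3p -0.0387 and miR-363 0.0248. Scaling without the most abundant miRNAs, the log2 fold changes with the other sign were miR-10b 0.169, miR-181d-5p 0.0102, miR-191 0.0343, miR-221-5p 0.126, miR-222 0.0645, miR-23a 0.184, miR-26a 0.00319, miR-27a 0.0118, miR-363 0.285 and miR-7134-3p 0.405. With 1 library left out, the changes went for let-7c from -0.294 to 0.733, let-7d-3p from -0.148 to 0.913, let-7e from -0.833 to 0.0574, miR-103 from -0.737 to 0.0957, miR-106a from -0.812 to 0.517, miR-10b from -0.207 to 0.270, miR-148a-5p from -0.400 to 0.0568, miR-151-5p from -0.595 to 0.0124, miR-15a from -1.36 to 1.16. They went for miR-16 from -1.23 to 1.13, miR-181b from -0.790 to 0.0262, miR-181d-5p from -0.556 to 0.00283, miR-18a from -1.40 to 0.777, miR-191 from -0.437 to 0.0102, miR-221-5p from -0.407 to 0.295, miR-222 from -0.615 to 0.167, miR-23a from -0.224 to 0.355, miR-23b from -1.004 to 0.0436. The rest went for miR-27a from -0.440 to 0.0704, miR-28-3p from -0.734 to 0.815, miR-30b-5p from -2.06 to 0.784, miR-30c-5p from -0.584 to 0.496, miR-331-5p from -0.0823 to 0.475, miR-363 from -0.0958 to 0.287, miR-486 from -1.19 to 0.0346, miR-7134-3p from -0.946 to 0.735, miR-99b from -0.692 to 0.968.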
